A study of Ovis aries with 24 samples.

Results

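Of the 14179 genes that reached 1 CPM (the count of a gene over all counts of its library, scaled to counts per 1000000) in at least 1 of 3 rumen libraries of lambs at d5, 141 were at least doubled at d10 in every lamb. For each of them, the lowest of the 3 d10 rumen values was at least 2 times the highest of the 3 d5 values. These 141 genes are described here in the rumen, where they were chosen, and followed in the reticulum, omasum and abomasum. The libraries of these 3 chambers had no part in the choice, but may come from the same lambs. The table lists 27054 genes in all. The thresholds were met by 147 genes (1.04% of the 14179), and 6 of them, set aside by identifier, were not described here.

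Epithelium from each of the 4 stomach chambers of sheep (Ovis aries) was sequenced at d5 and at d10, which gave 24 libraries of RNA, 3 per chamber and age. The tissue was freed from the muscle layer right after slaughter, and the rumen was sampled at its ventral sac. By the study's methods, the d5 lambs were healthy male Hu lambs kept with their mothers on ewe's milk, with starter pellets offered from d10, and the d10 lambs are not described there. The labels give no genotype or treatment and set the 8 groups apart by chamber and age only. The lambs of d5 and of d10 were different animals. As the d10 lambs are not described, other differences between the ages, such as feed, cannot be told apart from age.

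The rumen, reticulum and omasum form the forestomach and are lined by a stratified squamous epithelium, whereas the abomasum is the true stomach, with a glandular mucosa that secretes acid and digestive enzymes. In a suckling lamb, milk passes by the forestomach into the abomasum, and the rumen is small, with little fermentation. After birth its epithelium grows, keratinizes, forms papillae and acquires the transport and metabolism of short-chain fatty acids, a process that solid feed and the microbes of the rumen are known to drive.

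The files gave the genes by Ensembl identifier alone, and 0 of the 27054 identifiers matched a symbol in the gene table used, so that no member is described by its function, and no marker of a cell type could be checked by name. Members are therefore given by their rank among the 141, either by mean rumen level at d10 ("by level") or by the ratio of the lowest d10 to the highest d5 rumen value ("by ratio"). CPM is not scaled to the length of a gene. An order or a median of genes by CPM is therefore one of their counts, which length also sets, and is not read as an order of transcript levels. In whole tissue, fewer cells of a type and less RNA per cell cannot be told apart.

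Total counts were 13041697 to 19650121 per library, and 1 count was 0.0509 to 0.0767 CPM. The 2 omasum libraries of d5 with the numbers 1 and 2 stood apart from their group. A set of 27 abomasal genes was chosen by level alone, with no abomasum library under 100 CPM and no rumen library above 1 percent of the lowest abomasum value. It was at a median of 6.61% and 60.7% of its abomasum level in them, against 0.0661% in omasum library 3 of d5. None of the 141 members belonged to this set. Results for the omasum are given with and without these libraries. Abomasum library 2 of d5 was the highest of its 3 libraries in 74.8% of the 14179 genes, and held the 27 genes at 63.7% of the abomasum level.

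Most members had few counts in the rumen at d5. Their mean level at d5 had a median of 2.54 CPM, against 20.7 CPM over the 14179 genes, and 94 of the 141 were under 5 CPM. At d10 the median was 13.1 CPM against 23.9 CPM. The median over members was 2.34, 2.45 and 2.74 CPM in the 3 d5 lambs and 13.6, 12.8 and 12.7 CPM in the 3 d10 lambs. At d10, 55 members had a mean below 10 CPM, 61 lay between 10 and 100 CPM, 20 between 100 and 1000 CPM, and 5 above 1000 CPM. All counts of members together made up 0.235% to 0.315% of a rumen library at d5 and 1.47% to 2.92% at d10. The 5 members of the highest level held 50.6% to 56.0% of these counts at d5 and 66.2% to 74.2% at d10.

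The ratio that defined the list had a median of 2.63, with quartiles of 2.27 and 3.73 and a highest value of 11.1. It was below 2.5 for 61 members, above 3 for 53, above 5 for 22 and above 10 for 2. The fold between the means of the 3 lambs of each age was larger, with a median of 4.69 and a range of 2.63 to 49.6. These values chose the members and were not tested. At the threshold of the ratio, the nearest members were at 2.006 (2.40 CPM at most at d5, 4.82 CPM at least at d10) and 2.007, and the nearest genes left outside were at 1.978 (19.8 and 39.1 CPM) and 1.976. At the threshold of the level, the lowest member had 1.001 CPM as its highest d5 value, and the nearest gene outside had 0.974 CPM.

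**Figure D1:**
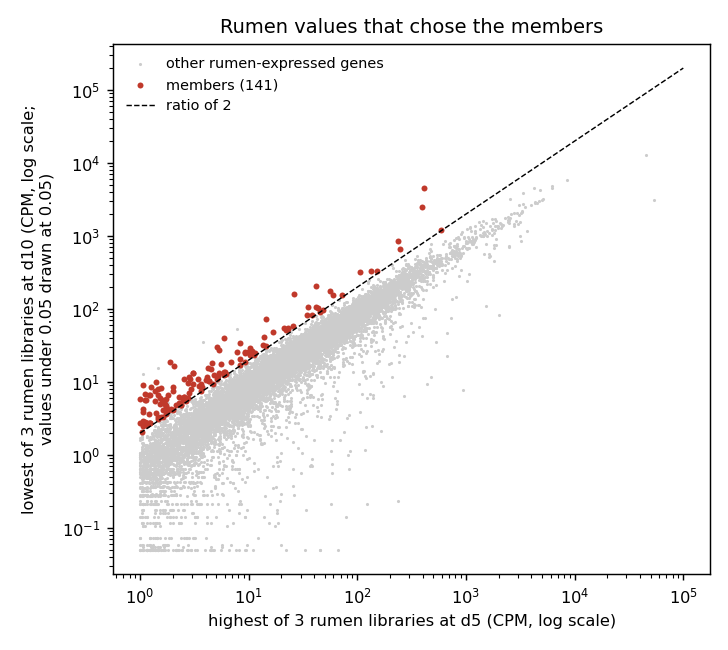
Highest of the 3 rumen values at d5 (x axis) against the lowest of the 3 rumen values at d10 (y axis) for the 14179 genes, both in CPM on log scales. The 141 members (red) lie above the dashed line of a ratio of 2, most of them in the lower left, with a median highest d5 value of 3.07 CPM, and ENSOARG00000017272 lies farthest above the line among the high members.

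The member ENSOARG00000017272 ranked the first both by level and by ratio. In the rumen it had 209, 408 and 374 CPM in the lambs of d5 and 9241, 4539 and 4606 CPM in those of d10, which is 330 ± 107 against 6128 ± 2696 CPM (SD, n = 3). The lowest d10 lamb was 11.1 times the highest d5 lamb. In the reticulum it had 1572, 986 and 1027 CPM at d5 and 10616, 2043 and 7138 CPM at d10, again without overlap. In the omasum it had 203, 16.2 and 770 CPM at d5 and 1288, 946 and 1951 CPM at d10. The values in the 6 abomasum libraries were 0.234 to 1.19 CPM. This gene was thus high in the 3 forestomach chambers and barely counted in the abomasum, and the lowest of the d5 omasum values came from library 2.

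Ranks 2 to 4 by level had a like distribution over the chambers. Rank 2 had 391.8, 149 and 316 CPM in the rumen at d5 and 6233, 2468 and 5484 CPM at d10. Rank 3 had 210, 43.0 and 236 CPM at d5 and 2538, 849 and 4853 CPM at d10. Rank 4 had 313, 458 and 592 CPM at d5 and 2091, 1211 and 1604 CPM at d10, a ratio of only 2.05. In each of the 3 members, lamb 2 of d10 had the lowest of the d10 values, and no abomasum library reached 1 CPM. In the reticulum, rank 4 went without overlap from 177, 225 and 227 CPM at d5 to 2025, 488 and 1727 CPM at d10.

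Rank 5 by level, ENSOARG00000009344, was singled out after its values were seen. It had 65.4, 233 and 245 CPM in the rumen at d5 and 1561, 672 and 1366 CPM at d10. In the abomasum it had 7.33, 3153 and 20.8 CPM at d5 and 3.58, 3.85 and 4.58 CPM at d10. Every d10 abomasum library was thus below every d5 one, and the size of this difference rested on the d5 library 2, which was more than 100 times the other d5 values. In the reticulum (711, 96.6 and 287 CPM against 693, 489 and 1740 CPM) and in the omasum (52.9, 315 and 286 CPM against 829, 363 and 1193 CPM) its mean was higher at d10, with overlap in the former only.

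**Figure D2:**
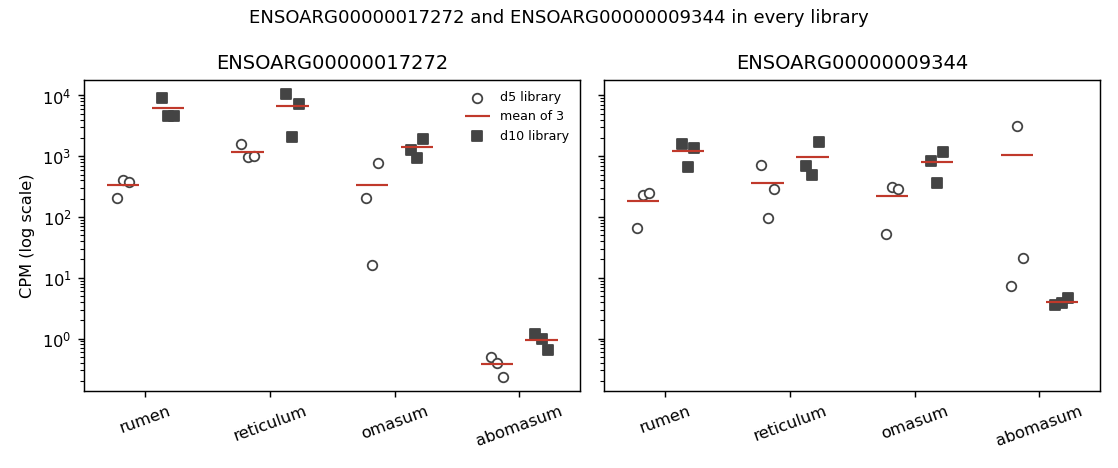
CPM (log scale) of ENSOARG00000017272 (left) and ENSOARG00000009344 (right) in each of the 24 libraries by chamber, with open circles for d5, filled squares for d10 and red lines for the mean of 3 libraries. The left gene lies at 16.2 CPM or more in every forestomach library and at 1.19 CPM or less in the abomasum, whereas the right gene has 1 abomasum library of d5 at 3153 CPM and the other 5 between 3.58 and 20.8 CPM.

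The 2 members with the next largest ratios had few counts at d5. Rank 3 by ratio (rank 38 by level) had 0.325, 1.07 and 0.734 CPM in the rumen at d5 and 41.8, 54.8 and 9.08 CPM at d10, a fold of means of 49.6. Rank 2 by ratio (rank 32 by level) had 1.23, 0.153 and 1.87 CPM at d5 and 43.1, 66.9 and 19.0 CPM at d10, a fold of 39.6. Both were low in every d5 lamb and differed several-fold among the d10 lambs. Of the 141 members, 92 reached 1 CPM in all 3 d5 lambs.

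Lambs of the same age differed more in the members than in other genes at d5. The SD of log2 CPM over the 3 d5 lambs had a median of 0.36 over members and 0.18 over the 14179 genes, while at d10 it was 0.26 against 0.21. The members also had fewer counts at d5, where counting error is wider, and its part in this spread was not tested. Lamb 3 was the highest of the d5 lambs in 78 members (55.3%, against 37.6% of the 14179 genes). At d10 the highest lamb was a median of 1.44 times the lowest. The widest member, rank 25 by level, had 68.5, 18.6 and 259 CPM at d10, a spread of 13.9 times, after 1.23, 8.74 and 9.14 CPM at d5. Its lowest d10 lamb still passed the rule with a ratio of 2.03.

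The members were then placed among the chambers outside the rumen, with the reticulum as the chamber of the same lining as the rumen and the abomasum as the glandular one. Both ages were averaged, in a fit of the 18 libraries of the reticulum, omasum and abomasum (edgeR's quasi-likelihood test, two-sided, Benjamini-Hochberg adjustment over the 15996 genes tested, threshold 0.05). All 141 members were tested. Of them, 67 (47.5%) were higher in the abomasum than in the reticulum, against 21.7% of the background, which here and in the other tests is those of the 14179 genes that passed the filter on low counts (14123 in this fit). The number higher in the reticulum was 26 (18.4%, against 26.2% of the background), and 48 were not called. A gene can pass the filter through only the chamber where it is high, so that these counts are a description. With at least 10 counts in every library, 77 members were tested, of which 5 were higher and 44 lower in the reticulum. Of 11385 background genes, 2735 were higher and 2602 lower. The rule favours members that are low in the rumen at d5, and its part in these shares was not tested. Between the reticulum and the omasum, 4 members were higher in the reticulum (0.198% of the background) and 0 were lower (0.283%), with 19 and 11 at an unadjusted p under 0.05 (6.93% and 7.29% of the background). DESeq2 called 8 and 1 (1.25% and 1.73% of the background), and without omasum d5 libraries 1 and 2 edgeR called 0.

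The 26 members that were higher in the reticulum included those that took the most counts of the rumen list. All of the top 5 by CPM at d10, 8 of the top 10 and 13 of the top 25 were among them. From d5 to d10 their mean rumen CPM went from a median of 11.4 to 89.9. For the 67 members higher in the abomasum it went from 1.88 to 11.7 CPM, and for the 48 not called from 2.38 to 12.7 CPM. For 17 of the 26, every abomasum library was below 1 CPM. Of these, 2 had 0 counts in all 6 abomasum libraries, which per library allows up to 0.176 to 0.213 CPM (3 counts, counting error only). ENSOARG00000017272 was higher in the reticulum by 11.59 on the log2 scale (SE 0.92, adjusted p = 3.4e-07). The top 10 by ratio held 5 of the 67 members and 3 of the 26.

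**Figure D3:**
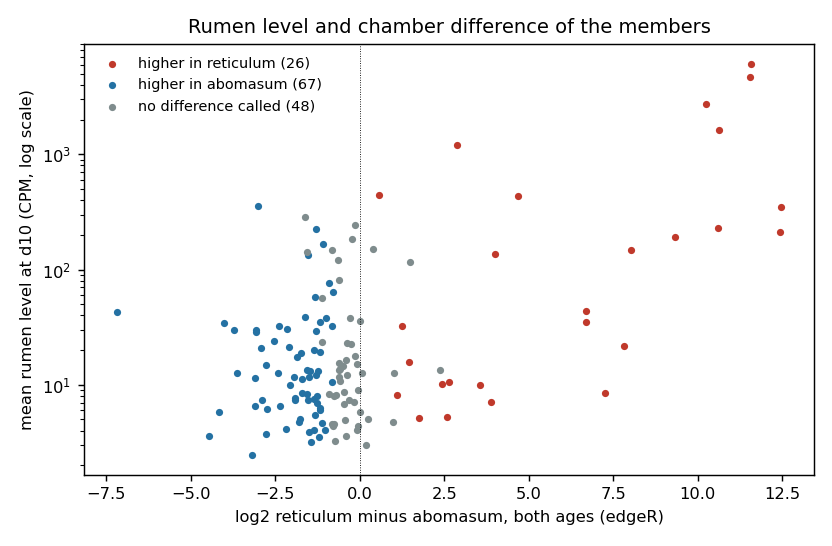
The difference between reticulum and abomasum (x axis, log2 fold change fitted by edgeR over both ages, positive where the reticulum was higher) against the mean rumen level at d10 (y axis, CPM on a log scale) for the 141 members, coloured by the call. The 5 members above 1000 CPM all lie to the right of 0, while the 67 blue members reach no higher than 353 CPM, and fitted differences of members with few abomasal counts depend on the prior count of the fit.

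Rank 8 by level was the first of the 67 in that order. It had 90.2, 93.7 and 134 CPM in the rumen at d5 and 368, 361 and 330 CPM at d10, with little spread between lambs. In the abomasum it had 200, 482 and 452 CPM at d5 and 2142, 2818 and 2279 CPM at d10. It was higher in the abomasum than in the reticulum (log2 fold change of reticulum over abomasum -3.004, SE 0.24, adjusted p = 3.8e-07). Rank 2 by ratio was also abomasal, with 73.0 to 278 CPM at d5 and 156 to 458 CPM at d10 in the abomasum against 66.9 CPM at most in the rumen.

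In the reticulum, the members were mostly higher at d10 than at d5. The mean was higher at d10 for 139 of the 141 members (98.6%, against 55.9% of the 14179 genes). Every d10 library was above every d5 library for 88 members (62.4%, against 5.97% of the 14179 genes), and the opposite held for 0 members (5.37% of the 14179). The median member had 3.11, 2.70 and 2.76 CPM in the d5 libraries and 7.18, 6.60 and 9.36 CPM in the d10 libraries. The log2 difference of the means (with 0.5 CPM added) had a median of 1.29 over members and 0.05 over the 14179 genes, against 1.94 and 0.15 in the rumen. The whole rule of the rumen, applied to the reticulum, was met by 21 members (34 genes, 0.24%, of the 14179).

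The test of age in the 6 reticulum libraries (edgeR's quasi-likelihood test, two-sided) called 0 of the 141 members after Benjamini-Hochberg adjustment over the 14708 genes tested, and 0 genes in all (0.0%). At an unadjusted p under 0.05, 86 members were higher at d10 and 0 were lower, against 3.73% and 3.27% of the background. The fitted log2 fold change had a median of 1.38 over members and 0.00 over the background. DESeq2, with its own adjustment, called 41 members, all higher at d10 (0.595% of the background were higher). The count of calls thus depended on the test, whereas the median did not, being 1.39 with DESeq2. A gene can pass the filter on low counts through the higher age alone, so that these counts are a description. With at least 10 counts in every reticulum library, 105 members were tested by edgeR, with a median log2 fold change of 1.30. At an unadjusted p under 0.05, 71 of them were higher at d10 and 0 were lower, against 512 and 408 of 13071 background genes.

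The lowest adjusted p in the reticulum was 0.113 and was shared by 3 members. One was rank 2 by ratio, with 0.353, 0.291 and 0.425 CPM at d5 and 5.92, 20.7 and 23.8 CPM at d10 (log2 fold change 5.49, SE 0.66). Another was rank 3 by ratio, with 0.212, 1.82 and 1.203 CPM at d5 and 18.7, 21.1 and 16.3 CPM at d10 (log2 fold change 4.07, SE 0.57). The last, rank 52 by level, had 0.424, 0.146 and 0.0708 CPM at d5 and 28.7, 5.06 and 19.9 CPM at d10. All 3 were at 1.82 CPM or less in every d5 library and at 5.06 CPM or more in every d10 library. Members this low at d5 can pass the filter on low counts through d10 alone, so that these values are a description. For ENSOARG00000017272 the log2 fold change was 2.41 (SE 0.59), with an unadjusted p of 0.0029 and an adjusted p of 0.405.

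The rumen and the reticulum libraries of the same age and number deviated together from their group means, with correlations across genes of 0.118 to 0.391 in all 6 pairs. So did those of the rumen and the omasum at d10, at 0.219 to 0.365 in all 3 pairs. At d5 the rumen and omasum libraries were at 0.285, -0.002 and 0.046. The reticulum and omasum libraries were at 0.123, 0.072 and 0.103 at d5 and at 0.247, -0.039 and -0.222 at d10. Those of the reticulum and the abomasum were at -0.203 to 0.312 over both ages. Those of the rumen and the abomasum were at -0.053 to 0.170 over both ages. Libraries of d5 and d10 that share only a number reached 0.237 in the reticulum. Rank 6 by ratio, described below, had 0 counts in library 3 of d5 in each of the 4 chambers. Libraries of the same age and number may come from the same lambs in any chamber, which was not tested. How much of a difference outside the rumen belongs to the lambs rather than to the age cannot be told apart here.

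**Figure D4:**
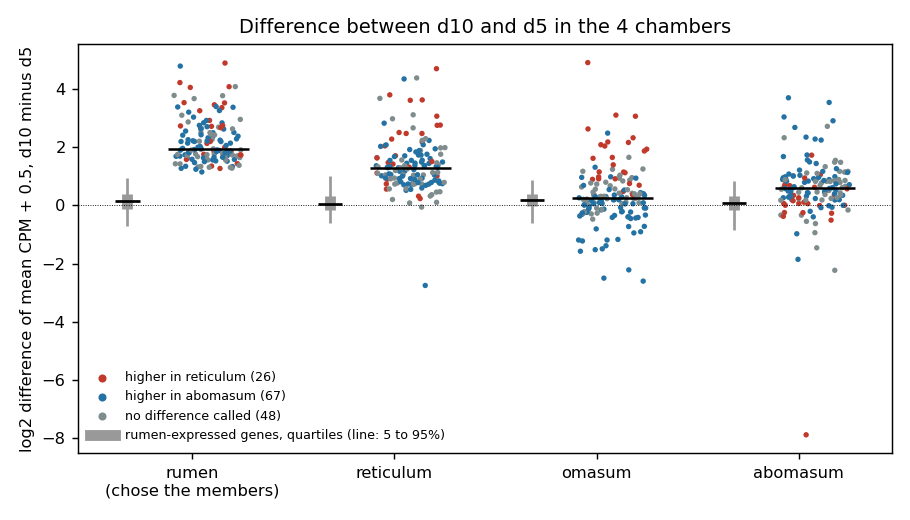
Difference between d10 and d5 in each chamber, as the log2 difference of the mean CPM with 0.5 added, for each of the 141 members (points, coloured by the reticulum against abomasum call) and for the 14179 genes (grey bars for quartiles, grey lines for 5 to 95%). Black lines mark medians, which for members are 1.94 in the rumen, where they were chosen, 1.29 in the reticulum, 0.26 in the omasum and 0.61 in the abomasum, against 0.15, 0.05, 0.18 and 0.08 over the 14179 genes.

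In the abomasum the difference was smaller and less regular. The mean was higher at d10 for 116 of the 141 members (82.3%, against 58.6% of the 14179 genes). Every d10 library was above every d5 library for 33 members (23.4%, against 7.15% of the 14179 genes), and below for 2 (1.42%, against 1.5%). The median member had 2.13, 5.26 and 3.10 CPM at d5 and 8.16, 3.71 and 5.47 CPM at d10, so that the groups overlapped. The rule of the rumen was met in the abomasum by 10 members (0.346% of the 14179 genes), of which 3 also met it in the reticulum.

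The filter on low counts left 122 members in the test of age in the abomasum, and those left out were mostly members of the forestomach, since 8 of the 26 higher in the reticulum remained. A gene can pass this filter through the higher age alone, so that counts over the 122 are a description. Of the 122, 0 were called at an adjusted p under 0.05 (0.0% of the background). At an unadjusted p under 0.05, 29 were higher at d10 (3.01% of the background) and 1 was lower (2.24%), the latter being ENSOARG00000009344 (log2 fold change -7.80, SE 2.13, adjusted p = 0.644). DESeq2 called 9, all higher at d10 (0.625% of the background were higher). Without abomasum d5 library 2, the counts at an unadjusted p were 26 and 1, against 379 and 177 of 13016 background genes. Without d10 library 1 they were 14 and 1, against 410 and 240 of 13055.

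The lowest adjusted p in the abomasum, 0.0547, belonged to rank 53 by level. It had 2.49, 6.32 and 4.16 CPM at d5 and 51.1, 34.4 and 31.3 CPM at d10 (log2 fold change 3.07, SE 0.32). The same member had 1.62, 1.92 and 4.07 CPM at d5 and 22.2, 30.3 and 10.7 CPM at d10 in the rumen, and 0.848, 1.82 and 3.40 CPM against 12.4, 11.7 and 6.29 CPM in the reticulum. It was thus higher at d10 without overlap in all 3 chambers. Rank 8 by level, described above, had a log2 fold change of 2.59 (SE 0.40, adjusted p = 0.159) in the abomasum and of 1.18 (SE 0.26, adjusted p = 0.345) in the reticulum.

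The median difference of the members was the smallest in the omasum, at 0.26 against 0.18 over the 14179 genes. The mean was higher at d10 for 95 of the 141 members (67.4%), a share below that of the 14179 genes (73.1%). Every d10 library was above every d5 library for 33 members (23.4%, against 14.5%), and below for 9 (6.38%, against 3.42%). The rule of the rumen was met by 2 members (0.0917% of the 14179 genes). Of the 140 members tested for age, 0 were called after adjustment (0.0% of the background), and at an unadjusted p under 0.05, 16 were higher at d10 (2.98%) and 9 were lower (4.03%). The median log2 fold change was 0.03. A gene can pass the filter on low counts through the higher age alone, so that these counts are a description. With at least 10 counts in every omasum library, 122 members were tested, with a median log2 fold change of -0.05. At an unadjusted p under 0.05, 12 of them were higher at d10 and 8 were lower, against 406 and 503 of 13214 background genes. DESeq2 called 4 members, all higher at d10 (0.293% of the background were higher).

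These values moved with the omasum libraries that stood apart. Without d5 libraries 1 and 2, which leaves 1 d5 library whose spread is taken from the d10 libraries, the median log2 fold change was 0.45, and at an unadjusted p under 0.05, 21 members were higher (6.92% of the background) and 2 were lower (4.06%). All 3 d10 libraries were above d5 library 3 for 78 members (55.3%, against 36.5% of the 14179 genes) and below it for 20 (14.2%, against 25.1%). The 9 members with every d10 library below every d5 one included 8 of the members higher in the abomasum. Without libraries 1 and 2 their log2 fold changes were -0.75 to -0.40. Rank 115 by level was an example, with 2.34, 19.8 and 1.87 CPM at d5 and 1.35, 1.34 and 1.30 CPM at d10, where library 2 stood far above the rest.

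The classes of the reticulum against abomasum contrast separated the omasum values. Counts of the classes at an unadjusted p are a description, as are those of all members. Of the 26 members higher in the reticulum, 26 had a higher omasum mean at d10, against 73.1% of the 14179 genes. At an unadjusted p under 0.05, 9 were higher and 0 were lower (2.98% and 4.03% of the background). Their median log2 fold change was 1.54, or 1.04 without d5 libraries 1 and 2. Of the 67 members higher in the abomasum, 2 were higher, a share at the same background of 2.98%, and 9 were lower, with a median of -0.40, or 0.25 without these libraries. Omasum d5 library 2 was the highest of the 3 d5 libraries in 55 of the 67 (against 22.8% of the 14179 genes) and the lowest in 22 of the 26 (against 65.3%). The sign of the median of the 67 members thus turned with these libraries. Rank 2 by level had the same direction either way, with 28.04, 3.73 and 28.5 CPM at d5 and 438, 212 and 1190 CPM at d10 in the omasum (log2 fold change 4.77, SE 0.91, adjusted p = 0.675, and 4.27 without libraries 1 and 2).

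In the reticulum, each class was higher at d10. The median log2 fold change was 1.91 for the 26 members higher in the reticulum, 1.35 for the 67 higher in the abomasum and 1.13 for the 48 not called. At an unadjusted p under 0.05, 20, 45 and 21 of them were higher and 0 were lower, against 3.73% and 3.27% of the background. The d10 libraries were above all d5 libraries for 16, 52 and 20, against 5.97% of the 14179 genes. In the abomasum, 0 of the 8 tested members of the first class, 20 of the 67 and 9 of 47 were higher at an unadjusted p, against 3.01% of the background. The differences between classes were not tested.

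**Figure D5:**
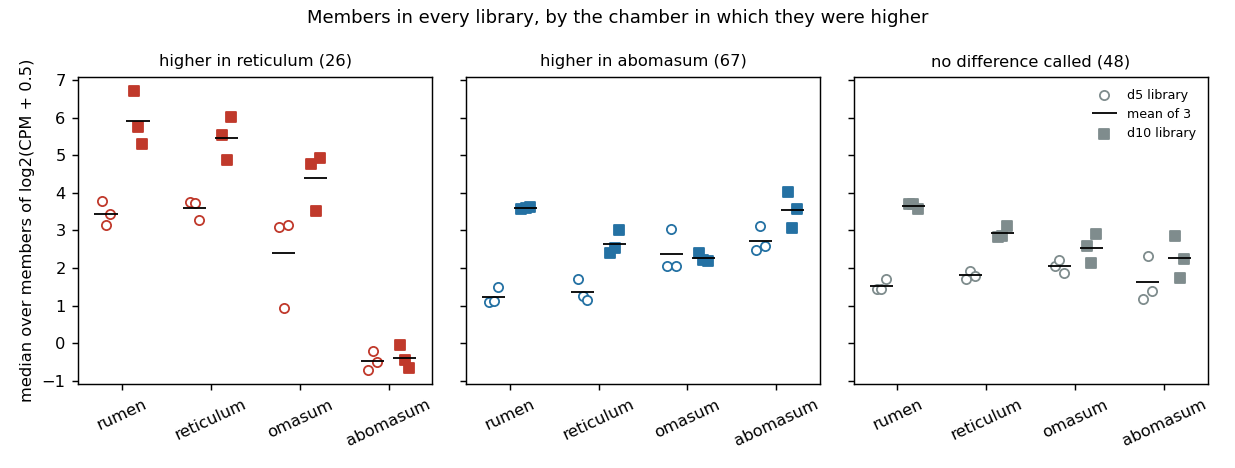
Median over members of log2(CPM + 0.5) in each of the 24 libraries, by chamber, for the members higher in the reticulum (26), higher in the abomasum (67) and not called (48), with open circles for d5, filled squares for d10 and black lines for the mean of 3 libraries. The first class lies far lower in the abomasum than in the other chambers and spreads from 5.30 to 6.71 over the d10 rumen libraries, whereas the second class lies at 3.58 to 3.61 in all 3 of them.

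In the median member, the d10 rumen libraries were nearly alike for the class higher in the abomasum and unlike for the class higher in the reticulum. The median of the 67 was 11.4, 11.5 and 11.7 CPM in the 3 d10 rumen libraries. That of the 26 was 118, 53.2 and 41.0 CPM. Summed over the 26 members, the rumen libraries of d10 had 25157, 11426 and 19822 CPM, and those of the reticulum 21386, 4701 and 18401 CPM. Library 2 was the lowest of the d10 libraries in 16 of the 26 members in the rumen, 21 in the reticulum and 18 in the omasum, against 38.5%, 20.4% and 33.8% of the 14179 genes. Even so, library 2 of the rumen was above all d5 rumen libraries for each member, as the rule requires.

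The order of the chambers changed between the ages. At d5 the mean of a member was the highest in the abomasum for 62 of the 141 (44.0%, against 14.5% of the 14179 genes). It was the highest in the omasum for 41 (29.1%, against 21.9%). The rumen was the highest for 21 (14.9%, against 37.2%) and the reticulum for 17 (12.1%, against 26.4%). The rumen was the lowest of the 4 chambers for 57 (40.4%, against 10.99%). With omasum d5 library 3 alone in place of the 3 omasum libraries, the abomasum was the highest for 68 (48.2%, against 16.4%). The omasum was then the highest for 40 (28.4%, against 34.0%), a share below that of the 14179 genes. The rumen was the highest for 20 (14.2%, against 26.4%) and the reticulum for 13 (9.22%, against 23.2%). In this order the rumen was the lowest for 49 (34.8%, against 8.95%). At d10 the rumen was the highest for 101 (71.6%, against 44.2%) and the abomasum for 32 (22.7%, against 14.5%). The reticulum and the omasum were the highest for 4 each (2.84%, against 10.8% and 30.5%). Compared with the rumen at d10, the mean was lower in the reticulum for 131 members, in the omasum for 133 and in the abomasum for 107. The rule favours members that are low in the rumen at d5 and high at d10, so that these orders were not tested.

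Across the 3 chambers outside the rumen, 34 members (24.1%, against 75.7% of the 14179 genes) overlapped between the ages in every one or were lower at d10. The d10 libraries were above the d5 libraries in both the reticulum and the abomasum for 25 members (0.839% of the 14179 genes), and in all 3 chambers for 6 (0.127%). Whether age acted differently in the reticulum and the abomasum was tested as an interaction in the fit of 18 libraries. It called 0 members and 0 genes in all (0.0%). At an unadjusted p under 0.05 the age effect was higher in the reticulum for 14 members (3.69% of the background) and lower for 3 (3.94%). No member was thus shown to change differently with age in these chambers.

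Rank 6 by ratio was not counted in the d5 libraries of number 3. It had 81, 77 and 0 counts in the rumen libraries 1 to 3 of d5, and 1122, 746 and 833 counts at d10. Library 3 of d5 had 0 counts of this gene in each of the 4 chambers, where the other d5 libraries had 57 to 250 counts. Over all genes listed, 1 gene had 0 counts in all 4 libraries of number 3 at d5 and at least 10 counts in all other d5 libraries, and this member was it. The same pattern was found for 1 gene with number 2 at d5, 1 with number 1 at d10 and 0 with each of the others.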

How the data were processed

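Chamber, age and library number were taken from the labels of 24 libraries. The authors deposited raw gene counts in 1 table, not normalized. CASAVA 1.8 and TopHat2 2.0.13 are named in the submitters' processing notes. How reads were counted, on which build and annotation and with or without strand, is not given in the sources used here, so that genes sharing reads with copies or antisense genes could not be set apart. The table had 0 rows without a gene and 0 duplicate identifiers. Within the groups, all 24 pairs of libraries exceeded counting error (chi-square per degree of freedom 20.2 to 745), and each library was 1 replicate. The labels do not name the lamb of a library.

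The members and lists were chosen with earlier results of these data known. CPM was taken over the library total, and 0.5 CPM was added before log2. Identifiers were looked up in the RefSeq gene table of assembly ARS-UI_Ramb_v3.0 (35057 genes). As 0 matched, the lists of genes by function and of cell type markers, written as symbols, were not run, and no sequence is shown. The rule for genes to name took the members with the highest mean rumen level at d10 and with the largest ratio, and other members were given by rank.

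Tests outside the rumen used edgeR 4.0.16 in R 4.3.3 (TMM, filterByExpr, quasi-likelihood test, two-sided, Benjamini-Hochberg adjustment, threshold 0.05), within the 6 libraries of a chamber for age and over 18 libraries for chambers. SE values were derived from the fold change and the quasi-likelihood F (size over square root of F). The background is the genes at 1 CPM or more in a rumen library of d5 that were tested. The scripts were tested on simulated data. Alternatives were DESeq2 1.42.0, its size factors within edgeR, other filters and fits, the d5 order of chambers with omasum library 3 alone (added after seeing the data), the replicate number as a block, and leaving out each library. For libraries with the same number, deviations from their group means were correlated across genes. All 6 pairs of rumen and reticulum and the 3 of rumen and omasum at d10 exceeded 0.1. No other pairing of chambers exceeded 0.1 in every pair of an age. Within a chamber, the libraries of d5 and d10 share only a number and were at -0.49 to 0.24. A value above 0.1 thus does not by itself mark libraries of the same lamb.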

Additional observations from a re-analysis of the deposited data

Results flagged for a closer look

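The following results were singled out because every d10 library was above every d5 one in the rumen and below every d5 one in another chamber. The difference between the chambers was not tested. ENSOARG00000009344 was higher at d10 in the rumen and lower in the abomasum, where the log2 difference of the means (0.5 CPM added) was -7.88, against 2.72 in the rumen. The size of the abomasum difference rested on 1 library, number 2 of d5, as described above. In the abomasum, 2 members had every d10 library below every d5 one, this gene and rank 88 by level (log2 difference -0.51). In the omasum, 9 members (6.38%, against 3.42% of the 14179 genes) had every d10 library below every d5 one. The omasum d5 libraries 1 and 2 stood apart as described.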

How the results depend on the processing

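Of 208 alternatives over all results, 167 left a count within 1.5 times its value or a median within the spread between replicates and 41 did not. Counts of 0 that stayed at 0 are among the 167, so that this tally is no measure of how firm the results are. The list of 141 members became 414 with a ratio of 1.5, 53 with a ratio of 3 and 56 with a minimum of 5 CPM. Scaled by TMM it held 116, of which 113 were shared. Leaving out 1 rumen library gave 157 to 238 members, with 238 without d10 library 2 and 236 without d10 library 3.

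Members called for age in the reticulum, 0 at an adjusted p, were 41 with DESeq2 and 4 with no filter on low counts. Background genes higher were 83 of 13955 and 7 of 14179. With 1 library left out, 0 to 5 members were called (1 without d10 library 1 or 3, 5 without library 2). Without d10 library 1, 2 or 3, background genes higher were 1 of 14036, 7 of 14007 and 6 of 14046. A fit outside the rumen without omasum d5 libraries 1 and 2 was added after seeing the data. It gave a median log2 fold change of 1.39. In the abomasum, 9 members were called with DESeq2, 1 with no filter and 1 with at least 10 counts in every library. The fit of 18 libraries called 5. Background genes higher were 81 of 12950, 8 of 14124, 3 of 11676 and 36 of 14123 in the same order. For the abomasum, the added fit gave a median log2 fold change of 0.63. In the omasum, DESeq2 called 4 members, against 41 of 14007 background genes higher. At an unadjusted p, members higher at d10 in the omasum were 7 to 29 with 1 library left out. They were 29 without d5 library 2, 10 without d10 library 1 and 7 without d10 library 3. Background genes higher were 760 of 14067, 397 of 14059 and 129 of 14056 in the same order. The median log2 fold change of members was -0.14 to 0.36 with 1 library left out (0.36 without d5 library 2). It was 0.45 without d5 libraries 1 and 2. In the abomasum, members higher at an unadjusted p were 14 to 36 (14 without d10 library 1, 36 without d10 library 2). Background genes higher were 410 of 13055 and 242 of 13163. With at least 10 counts in every library, 77 members were tested between reticulum and abomasum, and 5 were higher and 44 lower in the reticulum. Of 11385 background genes, 2735 were higher and 2602 lower. Between reticulum and omasum, members higher in the reticulum were 8 with DESeq2 and 0 with at least 10 counts in every library. The fit of both chambers called 2. Background genes higher were 176 of 14123, 8 of 11385 and 29 of 14103. With 1 library left out, 0 to 6 members were higher (0 without omasum d10 library 1, 6 without omasum d5 library 3). Background genes higher were then 4 of 14142 and 52 of 14145. Lower members were 1 with DESeq2 and 0 to 1 with 1 library left out (1 without omasum d5 library 3). Background genes lower were 244 of 14123 and 120 of 14145. Without omasum d5 libraries 1 and 2, the median log2 fold change of members was 0.19.

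With the replicate block, 2 members were called for age in the reticulum (85 higher at an unadjusted p), 0 in the omasum (19) and 0 in the abomasum (22). Background genes called higher in the reticulum were 5 of 13955. At an unadjusted p, 509 were higher there, 238 of 14007 in the omasum and 234 of 12950 in the abomasum. With the block, 27 members were higher and 62 lower in the reticulum than in the abomasum, against 3634 and 2879 of 14123 background genes. Against the omasum, 5 were higher and 0 lower in the reticulum, with 25 and 29 of 14123 background genes. For the difference of the age effect, 0 members were called. Within a chamber the same-numbered d5 and d10 libraries correlated at -0.49 to 0.24.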
